A study of Mus musculus with 16 samples.

Results

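The matrix metalloproteinase (Mmp), Adamts and Timp genes were examined in mouse PDA30364 tumors treated with anti-CD40 Ab, GEM or both. The family was defined by gene symbol, as Mmp, Adamts or Timp followed by a number, and 36 of the 18193 genes with a single-gene probe set belonged to it. These were 17 Mmp genes, 15 Adamts genes and 4 Timp genes, measured by 69 probe sets. Another 9 genes of the family were not analysed here, since no probe set was annotated to them alone: Adamts2, Adamts13, Adamts14, Adamts17, Mmp15, Mmp21, Mmp25, Mmp27 and Mmp28.

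PDA30364 is a pancreatic tumor line that came from a genetically engineered mouse. It was grown subcutaneously, in Matrigel, in the flank of C57BL/6-Ly5.1 mice aged 6 to 12 weeks, so the tumor did not grow in the pancreas. The GEM/anti-CD40 Ab group received both agents, the GEM group received GEM, the anti-CD40 Ab group received the antibody, and the control group received neither. For chemotherapeutic drugs the paper gives PBS as what control groups received. It also names isotype control antibodies. It does not assign these, or PBS for the anti-CD40 Ab group, in this experiment. Doses of 120 mg/kg GEM (gemcitabine, a nucleoside analog) fell on days 1, 5 and 12 of treatment. Days 3, 4, 6 and 14 were those of the agonist anti-CD40 Ab. Tumors were collected 22 or 23 days after inoculation from 4 mice per group, and RNA from pieces of whole tumor was hybridized to 16 arrays. The labels of GEM replicates 3 and 4 give 1 and the same animal number. The SD of their difference over the probe sets was 0.26, toward the lower end of the 0.21 to 0.42 of pairs within a group. This does not show whether the 2 came from 1 animal.

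Matrix metalloproteinases are zinc enzymes that are made as inactive precursors and cleave collagens, gelatin, elastin, proteoglycans and many secreted or membrane proteins. ADAMTS enzymes are a related family, with thrombospondin-type repeats, that trims procollagens and cuts large proteoglycans such as versican and aggrecan. TIMPs are secreted inhibitors that bind the active site of these enzymes. In tumors these genes are expressed by cancer cells, fibroblasts, endothelial cells, macrophages and neutrophils. RNA levels do not measure enzyme activity, which depends on activation and inhibition of the protein.

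All values are RMA log2 intensities, a scale on which a difference of 1 is a doubling of the signal. Array medians lay between 5.60 and 5.66. Markers of tumor ductal epithelium were bright on every array, with list means of 11.8 to 12.4. The acinar enzymes of normal pancreas had 2 of 5 markers measured, Cpa1 with a mean of 4.57 and Cela1 with 9.43. Of the tumors, 3 stood apart. Keratinocyte markers averaged 7.03 in anti-CD40 Ab replicate 2 and 8.71 in control replicate 2, against 4.69 to 5.36 in the other 14 tumors, and skeletal muscle markers averaged 12.5 in GEM/anti-CD40 Ab replicate 4, against 4.31 to 8.18 in the others. In whole tumor RNA, fewer cells of a type and less RNA per cell cannot be told apart.

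The anti-CD40 Ab main effect compares the 8 tumors that received the antibody with the 8 that did not, averaged over tumors with and without GEM. Mmp13 and Mmp12 rose, and they were the only members to pass an adjusted p under 0.05 in any of the 8 comparisons made. This made 2 of 36 members called, where 0.389% of the 45037 probe sets were called (136 higher and 39 lower). An unadjusted p under 0.05 was reached by 8 members that were higher and 3 that were lower, which is 30.6% of the family, where 15% of all genes passed. When the probe sets of each gene were averaged, in place of taking the brightest, these were 8 higher and 0 lower. The median log2 change was 0.06 over the members and -0.02 over all genes.

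Mmp13 is the main interstitial collagenase of the mouse, and Mmp12, macrophage elastase, cuts elastin. Mmp3, stromelysin 1, cuts proteoglycans and activates other Mmp precursors. In the mouse these 3 genes lie within 1 cluster of Mmp genes on chromosome 9, where Mmp13, Mmp12, Mmp1b, Mmp3, Mmp1a, Mmp10, Mmp20 and Mmp7 follow each other in this order among the members. The 250 bases before a RefSeq start (assembly GRCm38.p6) of Mmp13, Mmp12, Mmp3 and Mmp1a are printed because they show a feature found in 7 of the 8 cluster genes, Mmp20 being the exception, that the choice of members did not use. RefSeq gives Mmp12 another start, and the window before it (chr9:7344147-7344396) held neither this feature nor the TATA letters. Capitals mark the AP-1 motif, TGAGTCA or its reverse complement TGACTCA, searched on both strands. Mmp1a is given as a cluster gene with the motif and with values near the lower end of the array scale in all groups.
Mmp13, chr9:7272264-7272513, plus strand: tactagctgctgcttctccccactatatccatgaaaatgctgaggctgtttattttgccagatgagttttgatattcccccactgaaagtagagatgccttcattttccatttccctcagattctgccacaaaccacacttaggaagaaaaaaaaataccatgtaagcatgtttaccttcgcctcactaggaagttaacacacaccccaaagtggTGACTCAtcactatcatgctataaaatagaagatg
Mmp12, chr9:7347124-7347373, plus strand: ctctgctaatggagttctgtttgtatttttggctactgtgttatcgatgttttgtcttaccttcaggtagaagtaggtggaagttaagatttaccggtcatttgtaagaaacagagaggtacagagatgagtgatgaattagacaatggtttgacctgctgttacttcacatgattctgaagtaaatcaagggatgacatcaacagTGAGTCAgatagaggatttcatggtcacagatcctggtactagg
Mmp3, chr9:7445572-7445821, plus strand: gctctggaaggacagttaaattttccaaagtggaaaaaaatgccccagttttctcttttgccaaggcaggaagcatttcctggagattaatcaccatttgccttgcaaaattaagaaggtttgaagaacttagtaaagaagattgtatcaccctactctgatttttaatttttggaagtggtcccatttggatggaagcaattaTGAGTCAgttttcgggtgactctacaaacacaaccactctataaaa
Mmp1a, chr9:7463891-7464140, plus strand: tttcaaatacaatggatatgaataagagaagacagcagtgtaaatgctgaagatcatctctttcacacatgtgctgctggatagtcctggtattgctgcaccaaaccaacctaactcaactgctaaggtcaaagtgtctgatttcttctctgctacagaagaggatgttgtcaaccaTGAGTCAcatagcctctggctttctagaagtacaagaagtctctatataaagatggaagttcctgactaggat
The motif began 35 bases before the start in Mmp13, 44 in Mmp12, 46 in Mmp3 and 73 in Mmp1a. Promoter windows were given for 22 of the 36 members, each 250 bases before to 50 bases after a start, and 7 of these genes held the motif: Mmp13, Mmp12, Mmp1b, Mmp3, Mmp1a, Mmp10 and Mmp7. Some genes have more than 1 window, and a gene was counted if any of its windows held the motif. Mmp7, like Mmp12, also had a window without it. Over all genes with a window, 5.95% of 27025 held the motif, and over windows 5.20% of 32851. The TATA box letters TATAAA, on either strand, were in 9 of the 22 members, namely the 8 cluster genes and Adamts1, and in 15.7% of all genes. In Mmp12 these letters lay only after the start, outside the bases printed. A motif match describes the sequence and is neither a measured site nor a cause of the values.

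Mmp13 had 9.91, 9.52, 9.76 and 10.22 in GEM/anti-CD40 Ab tumors and 8.96, 8.83, 9.09 and 8.91 in GEM tumors. It had 9.53, 9.91, 9.86 and 9.96 in anti-CD40 Ab tumors, against 9.58, 9.32, 8.85 and 8.59 in controls. With GEM the groups did not overlap, and without GEM control replicate 1 lay just above the lowest anti-CD40 Ab tumor. The main effect was a log2 change of 0.82 ± 0.13 (SE, n = 8 and 8), or 1.76-fold, with an adjusted p of 0.0251 (limma). The call was lost without control replicate 3, anti-CD40 Ab replicate 3 or 4, or GEM replicate 1, 3 or 4 (adjusted p 0.0548 to 0.0731), and the log2 change ranged from 0.74 to 0.90 as each tumor was left out in turn. It was also lost with GEM replicates 3 and 4 averaged (adjusted p = 0.0598) and without the 3 tumors with keratinocyte or muscle markers (adjusted p = 0.0589).

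Mmp12 had 9.28, 9.70, 9.86 and 9.06 in GEM/anti-CD40 Ab tumors and 8.76, 7.90, 8.60 and 8.22 in GEM tumors. It had 8.79, 8.62, 8.79 and 9.12 in anti-CD40 Ab tumors, against 8.75, 8.03, 8.22 and 8.00 in controls. The tumors given both agents lay above every GEM tumor and every control. The main effect was a log2 change of 0.84 ± 0.15 (SE), or 1.79-fold, with an adjusted p of 0.0384 (limma). The call was lost without GEM/anti-CD40 Ab replicate 2, GEM replicate 1, 3 or 4, anti-CD40 Ab replicate 1, 3 or 4, or control replicate 2 or 3 (adjusted p 0.0615 to 0.0988), and with GEM replicates 3 and 4 averaged (0.0764), a trended and robust variance prior (0.0535) or the 3 tumors with keratinocyte or muscle markers left out (0.0561).

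Macrophage markers were measured beside these genes. Across the 7 macrophage markers the list mean was 8.67 to 9.82 in GEM/anti-CD40 Ab tumors, 8.22 to 8.89 in GEM tumors, 8.49 to 9.17 in anti-CD40 Ab tumors and 8.24 to 8.86 in controls. All 7 markers had an antibody main effect above 0, with a median log2 change of 0.38, and Itgam (0.96, adjusted p = 0.0398) and Lyz2 (0.76, adjusted p = 0.0434) rose, while Adgre1 had 0.06 ± 0.17. The 5 neutrophil markers measured had a median of 0.23, with 3 of 5 at an unadjusted p under 0.05, and the 5 endothelial markers a median of 0.56, with 5 of 5. The 5 T cell markers had the largest median of the lists, 1.13, with 4 of 5, and the 7 fibroblast markers had 0.20, with 2 of 7, all in the higher direction. The part of these cells in the Mmp values was not tested.

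**Figure D1:**
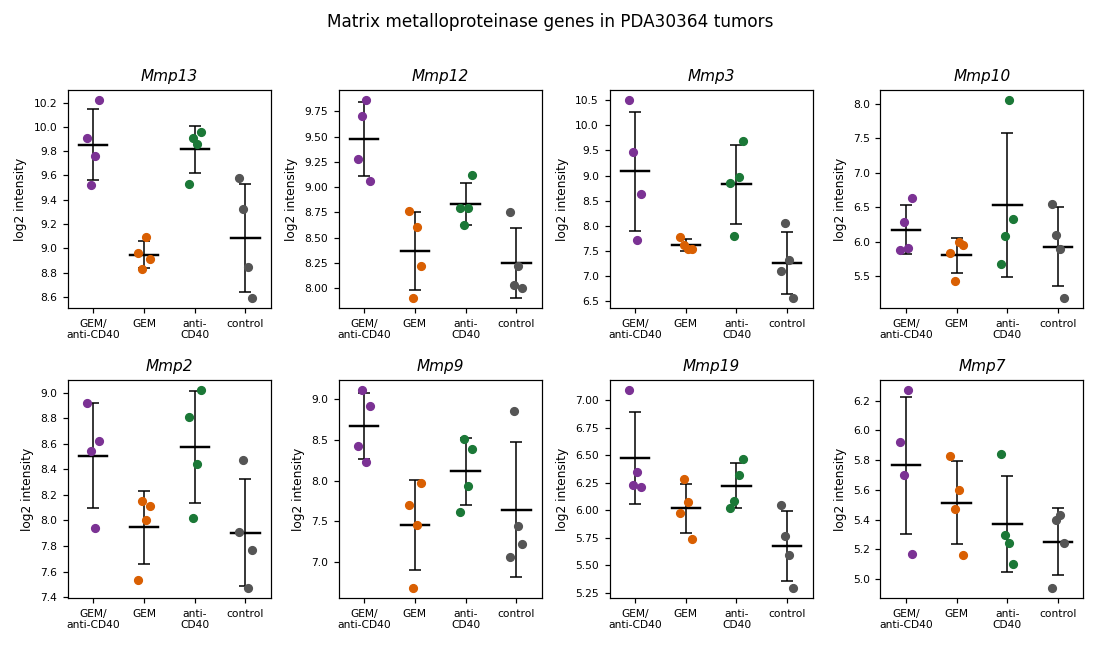
Log2 intensity of 8 Mmp genes in each tumor (points), with the group mean (thick bar) and SD (whiskers), n = 4 per group. For Mmp13 all 4 GEM/anti-CD40 Ab tumors (9.52 to 10.22) lay above all 4 GEM tumors (8.83 to 9.09), and the y axes differ between genes.

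Mmp3 had the largest fold of the family but did not pass. It had 10.50, 9.47, 7.71 and 8.64 in GEM/anti-CD40 Ab tumors and 7.78, 7.61, 7.54 and 7.53 in GEM tumors. It had 8.86, 7.79, 8.97 and 9.69 in anti-CD40 Ab tumors, against 7.09, 8.05, 7.32 and 6.56 in controls. Both antibody groups overlapped their comparison group, each through 1 low tumor, GEM/anti-CD40 Ab replicate 3 and anti-CD40 Ab replicate 2. The main effect was 1.52 ± 0.35 (SE), or 2.87-fold, with an adjusted p of 0.0677. It was called without either of those 2 tumors (adjusted p = 0.0163 without GEM/anti-CD40 Ab replicate 3 and 0.0466 without anti-CD40 Ab replicate 2) and when dim probe sets were left out (0.046). Leaving out a tumor picked for its low Mmp3 widens the Mmp3 difference by itself. Over all tumors 175 of 45037 probe sets were called, against 701 without GEM/anti-CD40 Ab replicate 3 and 192 without anti-CD40 Ab replicate 2. With dim probe sets left out, 373 of 22523 were called. In these 2 low tumors the fibroblast, macrophage and endothelial marker lists were each also the lowest of their group. They were 8.59, 8.67 and 6.62 in GEM/anti-CD40 Ab replicate 3, and 8.94, 8.49 and 6.47 in anti-CD40 Ab replicate 2. The neutrophil and T cell lists were not the lowest in either tumor. The tumor ductal epithelium list was the highest of its group in GEM/anti-CD40 Ab replicate 3 (12.38) but not in anti-CD40 Ab replicate 2 (12.32). The latter also had keratinocyte markers (7.03). The part of any of these cells in the Mmp3 values was not tested.

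**Figure D2:**
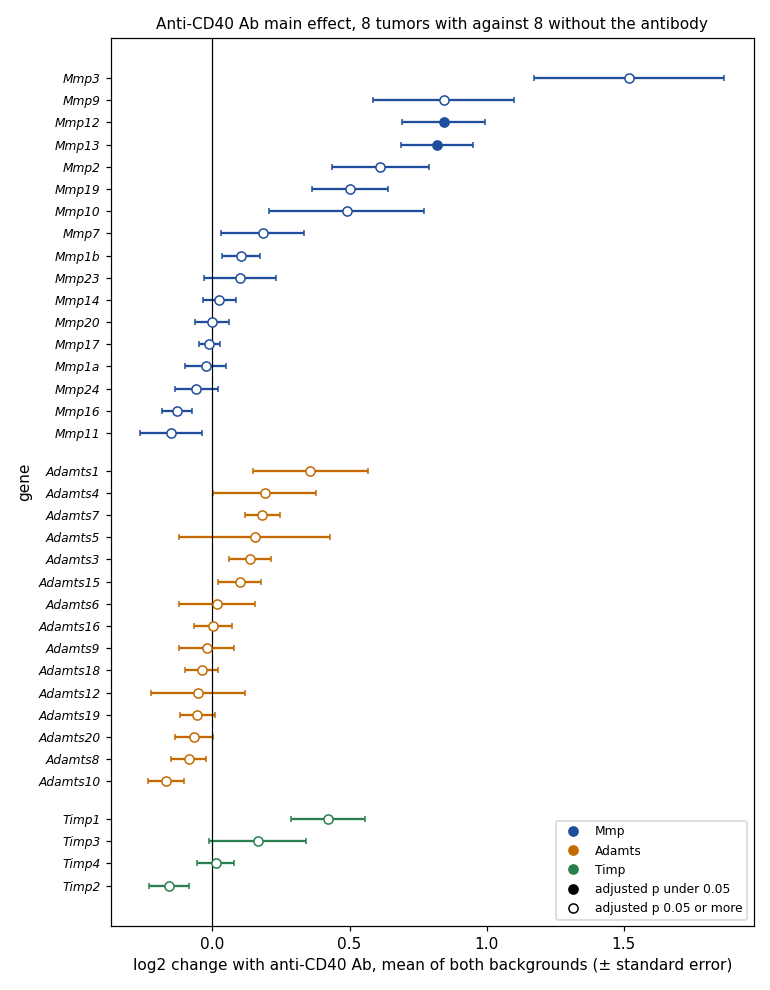
Log2 change with anti-CD40 Ab, averaged over both backgrounds, for the 36 members (points, whiskers are limma standard errors, 8 tumors with the antibody against 8 without), sorted within each family. Filled points, Mmp13 and Mmp12, passed an adjusted p under 0.05, while Mmp3 at 1.52 had the widest whisker of the family.

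The remaining genes of the chromosome 9 cluster gave smaller differences. Of its 8 measured Mmp genes, 3 had an unadjusted p under 0.05 for the antibody main effect, all higher. So did 8 of the other 28 members (5 higher) and 15% of all genes. Whether the cluster differed from the other members was not tested. Mmp10, stromelysin 2, differed by 0.49 ± 0.28 (SE, unadjusted p = 0.105). It ranged from 5.88 to 6.63 in GEM/anti-CD40 Ab tumors, 5.43 to 5.99 in GEM tumors, 5.68 to 8.05 in anti-CD40 Ab tumors and 5.18 to 6.55 in controls, so that anti-CD40 Ab replicate 3 alone stood far above the rest. Mmp7, matrilysin, differed by 0.18 ± 0.15. Mmp1a, Mmp1b and the enamel enzyme Mmp20 stayed between 2.80 and 3.67 on all 16 arrays, where the lowest deposited value was 2.22, and their main effects lay between -0.03 and 0.11. With intensities this low a change could not be measured well.

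**Figure D3:**
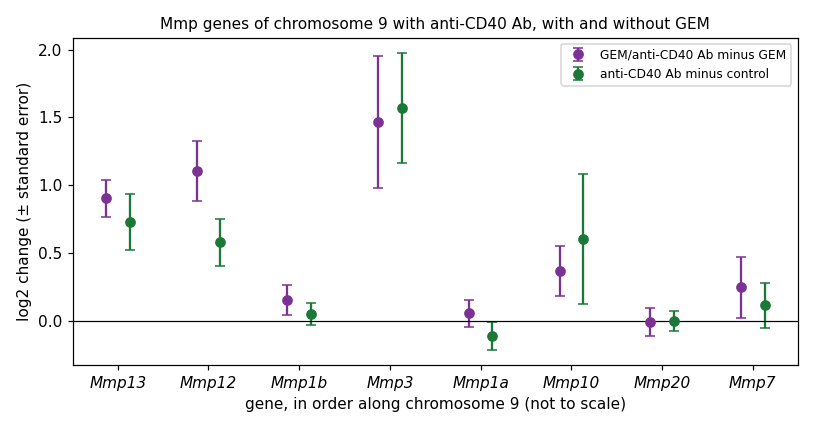
Log2 change with anti-CD40 Ab for the 8 measured Mmp genes of chromosome 9, in gene order, as GEM/anti-CD40 Ab minus GEM (purple) and anti-CD40 Ab minus control (green), with limma standard errors and 4 tumors per group. Mmp13, Mmp12, Mmp3 and Mmp10 lay above 0 by more than their standard error in both backgrounds, and Mmp20 lay at 0.

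The gelatinases Mmp2 and Mmp9 degrade denatured collagen and basement membrane collagen. Mmp2 had 8.92, 8.54, 7.94 and 8.62 in GEM/anti-CD40 Ab tumors and 7.53, 8.15, 8.00 and 8.11 in GEM tumors. It had 8.81, 8.02, 8.44 and 9.02 in anti-CD40 Ab tumors, against 7.91, 8.47, 7.47 and 7.77 in controls. The antibody main effect was 0.61 ± 0.18 (SE, adjusted p = 0.148), and the second probe set of Mmp2 gave 0.62. The groups overlapped through the same low antibody tumors as for Mmp3 and through control replicate 2, the tumor with the highest keratinocyte markers, which was the highest control.

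Mmp9 had 8.43, 9.11, 8.23 and 8.91 in GEM/anti-CD40 Ab tumors and 7.70, 6.68, 7.46 and 7.97 in GEM tumors, with no overlap. It had 7.62, 8.51, 7.93 and 8.39 in anti-CD40 Ab tumors, against 7.06, 8.86, 7.44 and 7.22 in controls, where control replicate 2 was again the highest. The main effect was 0.84 ± 0.26 (SE, adjusted p = 0.171), with 0.89 from its second probe set. The same change in log2 as for Mmp12 thus came with a wider spread. Without the 3 tumors with keratinocyte or muscle markers the main effect was 0.94 for Mmp9 (adjusted p = 0.0953), 0.78 for Mmp2 (0.0859) and 1.90 for Mmp3 (0.0594), so none of these 3 was called there.

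Mmp19, which cuts basement membrane proteins, had 7.09, 6.23, 6.35 and 6.21 in GEM/anti-CD40 Ab tumors and 5.97, 6.28, 6.07 and 5.74 in GEM tumors. It had 6.02, 6.08, 6.32 and 6.46 in anti-CD40 Ab tumors, against 6.05, 5.76, 5.59 and 5.29 in controls. The tumors given both agents all lay above the controls. The antibody main effect was 0.50 ± 0.14 (SE, adjusted p = 0.126), and the second probe set gave 0.35.

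The membrane-anchored members differed by little. Mmp14, the membrane type 1 enzyme that activates proMmp2, stayed between 11.42 and 11.77 in all 16 tumors, with an antibody main effect of 0.03 ± 0.06 (SE). Its other probe sets gave 0.03 and 0.10. Mmp16 differed by -0.13 ± 0.05 (adjusted p = 0.337), and its values of 3.87 to 4.31 were low throughout. It has 4 probe sets, and with the probe sets of each gene averaged 0 members were lower at an unadjusted p under 0.05. Mmp17 and Mmp24 differed by -0.01 and -0.06. Mmp11, stromelysin 3, which is known as a stromal gene of carcinomas, had 6.77 to 7.27 in GEM/anti-CD40 Ab tumors, 7.15 to 7.21 in GEM tumors, 6.73 to 7.19 in anti-CD40 Ab tumors and 6.68 to 7.63 in controls, with a main effect of -0.15 ± 0.11.

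Among the inhibitors, Timp1 was the one that differed most. It had 10.93, 10.44, 9.95 and 10.79 in GEM/anti-CD40 Ab tumors and 9.81, 9.84, 10.16 and 10.15 in GEM tumors. It had 10.39, 9.86, 10.61 and 10.37 in anti-CD40 Ab tumors, against 9.98, 10.23, 9.99 and 9.81 in controls. The antibody main effect was 0.42 ± 0.14 (SE, adjusted p = 0.200). It was called without GEM/anti-CD40 Ab replicate 3 (adjusted p = 0.0358), where 701 of 45037 probe sets were called, against 175 over all tumors. That tumor was 1 of the 2 low antibody tumors, again with anti-CD40 Ab replicate 2.

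Timp2, which inhibits Mmp2 and also takes part in its activation by Mmp14, had 11.54 to 11.92 in GEM/anti-CD40 Ab tumors and 11.70 to 11.97 in GEM tumors. It had 11.58 to 11.92 in anti-CD40 Ab tumors, against 11.70 to 12.06 in controls, with a main effect of -0.16 ± 0.07 (SE, adjusted p = 0.384). Its 6 probe sets disagreed, from -0.19 to 0.02. Timp3, which binds to the matrix and also inhibits ADAMTS enzymes, differed by 0.17 ± 0.18, and Timp4 by 0.01 ± 0.07.

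**Figure D4:**
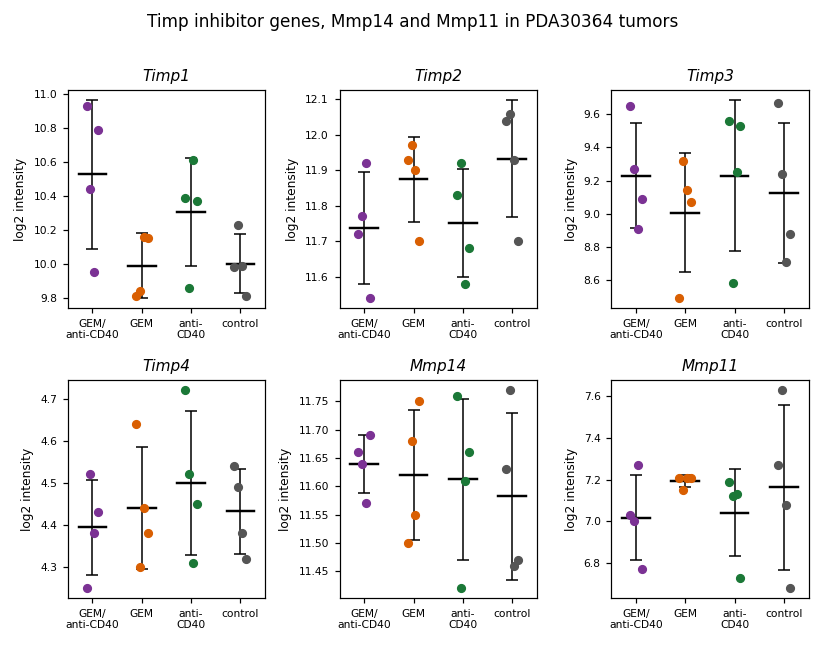
Log2 intensity of the 4 Timp genes, Mmp14 and Mmp11 in each tumor (points), with the group mean (thick bar) and SD (whiskers), n = 4 per group. Timp1 reached 10.93 in a GEM/anti-CD40 Ab tumor and no more than 10.23 in a control, while Mmp14 stayed between 11.42 and 11.77, and the y axes differ between genes.

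None of the 15 Adamts genes passed, and their median antibody main effect was 0.00, against 0.11 for the 17 Mmp genes. The proteoglycanase Adamts1 had 8.97, 9.18, 9.35 and 8.85 in GEM/anti-CD40 Ab tumors and 8.48, 9.75, 8.94 and 8.19 in GEM tumors. It had 9.47, 8.32, 9.12 and 9.06 in anti-CD40 Ab tumors, against 8.77, 8.30, 8.16 and 8.88 in controls, and its main effect was 0.36 ± 0.21 (SE, adjusted p = 0.523). The aggrecanases Adamts4 and Adamts5 differed by 0.19 ± 0.19 and 0.16 ± 0.28. Adamts5 reached 7.58 in GEM/anti-CD40 Ab replicate 4, the tumor with muscle markers, against 5.28 to 5.78 in the rest of that group, and without this tumor its main effect was -0.10.

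Adamts12, which cuts cartilage oligomeric matrix protein, had 6.94, 7.31, 6.64 and 7.41 in GEM/anti-CD40 Ab tumors and 7.22, 7.47, 7.23 and 7.61 in GEM tumors. It had 7.50, 6.89, 7.70 and 7.97 in anti-CD40 Ab tumors, against 7.60, 7.76, 6.76 and 7.12 in controls. The interaction of both agents, tested over all 16 tumors, was -0.51 ± 0.34 (SE, unadjusted p = 0.156). Without the 3 tumors with keratinocyte or muscle markers it was -0.98 (unadjusted p = 0.00527, adjusted p = 0.666). Adamts10, which is linked to fibrillin microfibrils, differed by -0.17 ± 0.07 with the antibody (adjusted p = 0.299), although its second probe set gave 0.03. Adamts16 had an antibody main effect of 0.00 ± 0.07 and Adamts20 of -0.07.

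**Figure D5:**
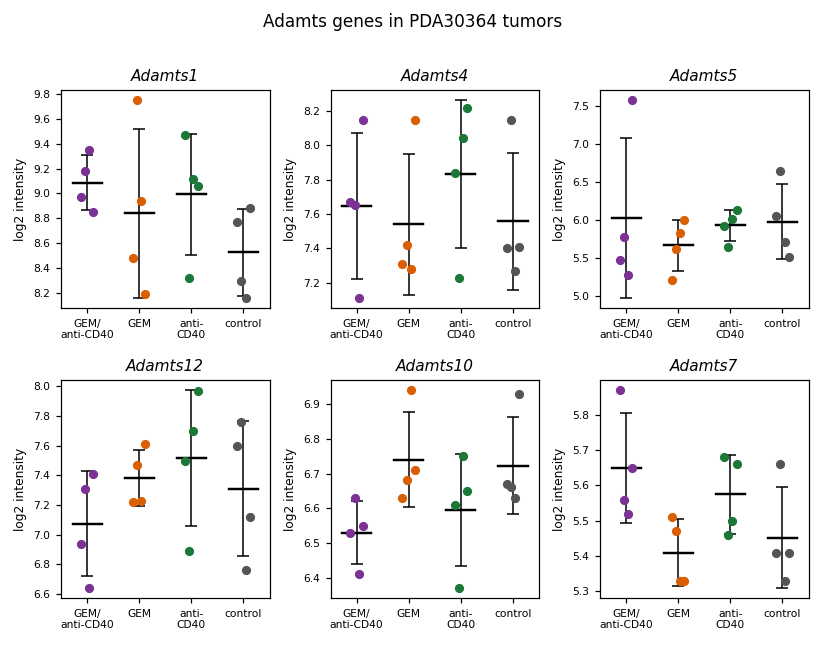
Log2 intensity of 6 Adamts genes in each tumor (points), with the group mean (thick bar) and SD (whiskers), n = 4 per group. The groups overlapped for most of these genes, and Adamts5 had 1 GEM/anti-CD40 Ab tumor at 7.58, and the y axes differ between genes.

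The 13 members not named by the rule on named genes were Mmp1a, Mmp1b, Mmp20, Mmp23, Mmp24, Adamts3, Adamts6, Adamts7, Adamts8, Adamts9, Adamts15, Adamts18 and Adamts19. Their log2 changes between pairs of groups lay between -0.14 and 0.25, and their smallest adjusted p in any comparison was 0.240, for Adamts7 (main effect 0.18 ± 0.06). Over the whole family, 14 members had a mean intensity below the median of all probe sets.

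For GEM/anti-CD40 Ab against control no member was called, where 0.0178% of probe sets were (8 of 45037). At an unadjusted p under 0.05, 9 members were higher and 1 lower, where 11.2% of all genes passed. These were Mmp12, Mmp19, Mmp13, Mmp3, Adamts1, Mmp9, Timp1, Mmp2 and Mmp7, and the lower one was Adamts10. When the probe sets of each gene were averaged, 9 members were higher and 0 lower. Mmp12 differed by 1.23 ± 0.21 (SE, 2.34-fold, adjusted p = 0.278), and with all 16 arrays in one fit it was called (adjusted p = 0.0466). Mmp3 differed by 1.83 ± 0.55, or 3.54-fold, with an adjusted p of 0.449. Mmp9 differed by 1.03 ± 0.38, or 2.03-fold. Values of Mmp7 were 5.17 to 6.27 in GEM/anti-CD40 Ab tumors and 4.94 to 5.43 in controls, with a log2 change of 0.51 ± 0.22 (adjusted p = 0.508).

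GEM/anti-CD40 Ab against GEM asks what the antibody added to GEM. No member was called, nor was any probe set (0%). At an unadjusted p under 0.05, 9 members were higher (Mmp13, Mmp12, Mmp9, Mmp3, Adamts7, Timp1, Mmp2, Adamts3 and Mmp19) and 1, Adamts10, was lower, where 12.8% of all genes passed. When the probe sets of each gene were averaged, 8 members were higher and 0 lower. Mmp13 differed by 0.91 ± 0.14 (SE, 1.87-fold) and Mmp12 by 1.11 ± 0.22 (2.15-fold), both with an adjusted p of 0.197, and Mmp9 by 1.22 ± 0.28 (2.33-fold, adjusted p = 0.218). In the other direction the smallest p after Adamts10 belonged to Mmp11 (-0.18 ± 0.10) and Adamts12 (-0.31 ± 0.17).

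Anti-CD40 Ab against control gave no called member and no called probe set (0%). At an unadjusted p under 0.05, Mmp3, Mmp13, Mmp19, Mmp12 and Mmp2 were higher and Mmp16 was lower, where 7.27% of all genes passed. When the probe sets of each gene were averaged, 5 members were higher and 0 lower. Mmp3 differed by 1.57 ± 0.40 (SE, 2.97-fold, adjusted p = 0.807). Without anti-CD40 Ab replicate 2 and control replicate 2, the tumors with keratinocyte markers, it differed by 2.18 (adjusted p = 0.0964). There 3 of 45037 probe sets were called, and 11 members instead of 6 had an unadjusted p under 0.05. The share of all genes at that p was not counted for this setting. For Mmp3 and Mmp2 these tumors were the lowest with anti-CD40 Ab alone and the highest control. Leaving them out widens those differences by itself. Mmp13 differed by 0.73 ± 0.20 and Mmp2 by 0.67 ± 0.25 over all 8 tumors.

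No member passed for GEM alone. GEM against control called no probe set (0%), and no member had an unadjusted p under 0.05, where 6.31% of all genes did. The median log2 change of the members was -0.02, between -0.31 for Adamts5 and 0.36 for Mmp3. Mmp3 had 7.53 to 7.78 in GEM tumors, inside the 6.56 to 8.05 of controls. Mmp19 differed by 0.34 ± 0.16 (SE) and Adamts16 by -0.18 ± 0.08. A p that misses the threshold does not show that levels were equal.

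The GEM main effect compares the 8 tumors with GEM to the 8 without it. It called no member, where 0.00222% of probe sets were called (1 of 45037). Mmp12 (0.38 ± 0.15), Mmp7 (0.33 ± 0.15) and Mmp19 (0.30 ± 0.14) had an unadjusted p under 0.05, all higher, which is 8.33% of the members, where 5.54% of all genes passed. GEM/anti-CD40 Ab against anti-CD40 Ab called no probe set (0%). Mmp12 (0.65 ± 0.18, unadjusted p = 0.00587) and Mmp9 (0.56 ± 0.24, unadjusted p = 0.0466) had an unadjusted p under 0.05, where 3.6% of all genes passed, and Adamts12 had the smallest p in the other direction, with -0.44 ± 0.24.

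The interaction asks whether the antibody difference with GEM departed from that without GEM. It called no probe set (0%), and no member had an unadjusted p under 0.05, where 5.12% of all genes did. The interaction was 0.53 ± 0.30 (SE) for Mmp12, 0.75 ± 0.52 for Mmp9, 0.19 ± 0.11 for Mmp16, 0.18 ± 0.26 for Mmp13 and -0.11 ± 0.69 for Mmp3.

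A list of 42 partners and regulators of these proteases, of which 40 were measured, was set beside the family. It held the plasminogen system, other protease inhibitors, Adam genes, Adamts-like genes, cathepsins and matrix substrates. For the antibody main effect, an unadjusted p under 0.05 was reached by 9 higher and 2 lower genes, with a median log2 change of 0.11, and 1 was called, where 15% of all genes passed and 0.389% of probe sets were called. This was A2m, alpha-2-macroglobulin, a broad protease inhibitor, which rose by 1.19 ± 0.21 (SE, adjusted p = 0.0345). It had 5.43 to 6.58 in GEM/anti-CD40 Ab tumors, 4.19 to 4.97 in GEM tumors, 4.89 to 6.38 in anti-CD40 Ab tumors and 4.28 to 4.92 in controls. The other 8 higher ones were Adam8 (0.45), Furin (0.16), Ctss (0.59), Plaur (0.20), Adam17 (0.17), Cd44 (0.15), Ctsl (0.11) and Lcn2 (0.36), and the 2 lower ones were Adamtsl4 (-0.27) and Adamtsl2 (-0.19).

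Furin is the convertase that activates membrane-type Mmp precursors, Adam8 is a protease of myeloid cells, and cathepsin S (Ctss) is a lysosomal protease of antigen-presenting cells. Urokinase (Plau), the activator of plasminogen, differed by 0.01 ± 0.05 and its receptor Plaur by 0.20 ± 0.06. Reck, a membrane inhibitor of Mmp enzymes, differed by 0.23 ± 0.16. By the same unadjusted p, combined treatment had 10 of the 40 higher and 2 lower than in controls (11.2% of all genes passed), and 6 higher and 1 lower than in GEM tumors (12.8%). Anti-CD40 Ab alone had 6 higher and 2 lower than in controls (7.27%), and GEM alone had 3 higher and 0 lower (6.31%), which is near the share of all genes.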

How the data were processed

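RMA, run by the authors, made log2 intensities from the Affymetrix arrays (background correction, normalization between arrays and 1 value per probe set), and these were deposited. Its version and which arrays shared a normalization were not given in the sources. After 64 control probe sets were left out, 45037 were tested without a filter. Genes were named through GEO's platform annotation: 34945 probe sets had 1 symbol, 932 several, and 9160 were not listed. The probe set with the highest mean over 16 arrays represented a gene. One gene of the family is not reported here.

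Pairs of groups were compared on their 8 arrays, and main effects and the interaction on 16, with limma 3.58.1 (R 4.3.3), two-sided, with Benjamini-Hochberg adjustment over the 45037 probe sets. SE is limma's. Replicates are tumors of separate mice per the labels, except the shared animal number of GEM replicates 3 and 4. The fit was tested on simulated arrays. Promoter sequences are RefSeq's, assembly GRCm38.p6.

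Named with statistics were called members, the 3 smallest p in each direction per comparison, the 5 highest means, and genes fixed by role. The members, lists and alternatives were chosen with earlier results of these data known. Alternatives were all arrays in one fit, a dim-probe filter, another variance prior, 75th-percentile scaling, the mean of a gene's probe sets, no cross-hybridizing probe sets, the replicate block, averaged GEM replicates 3 and 4, 3 tumors left out, and each array left out.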

Additional observations from a re-analysis of the deposited data

Results flagged for a closer look

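In 92 groups of 4 tumors (23 named genes), 7 tumors stood apart from the other 3 of their group by more than Dixon's 95% critical value for the gap over the range, and chance flags about 1 in 20 groups. Mmp19 was 7.09 in GEM/anti-CD40 Ab replicate 1, against 6.21 to 6.35 in the others. Adamts4 was 8.15 in GEM replicate 4 (others 7.28 to 7.42) and 8.15 in control replicate 2 (others 7.27 to 7.41). Control replicate 2 is the tumor with the highest keratinocyte markers, and the part of skin in this value was not tested. Adamts16 was 6.38 in GEM replicate 4 (others 6.17 to 6.20). Adamts10 was 6.93 in control replicate 4 (others 6.63 to 6.67). Mmp11 was 6.73 in anti-CD40 Ab replicate 4 (others 7.12 to 7.19), and 7.15 in GEM replicate 2, where the others all read 7.21.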

How the results depend on the processing

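Of 48 log2 changes recomputed under every alternative, none that was called changed sign. With 4 arrays per group, precision is limited. The 2 members called for the antibody main effect (175 of 45037 probe sets called) became 1 with a trended and robust prior (61 probe sets). They became 0 with GEM replicates 3 and 4 averaged (18) or without the 3 tumors with keratinocyte or muscle markers (52). As each array was left out, between 0 and 4 members were called, and 7 to 701 probe sets. Combined treatment against control had 1 called member with all 16 arrays in one fit, where 44 of 45037 probe sets were called. With dim probe sets left out, 22 members were tested and 3 were called for the antibody main effect, where 373 of 22523 probe sets were called. Correlations of same-numbered tumors ran from -0.27 to 0.27, and in no pair of groups were all 4 over 0.1, so the numbers were not taken to pair the tumors. GEM/anti-CD40 Ab and control came nearest (0.04 to 0.23, with 3 of 4 over 0.1). With the replicate block 0 members were called for the antibody main effect (adjusted p 0.0588 for Mmp13 and 0.0545 for Mmp12), where 54 of 45037 probe sets were called. Each tumor correlated best with its own number in 0 to 3 of 4 cases.

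At an unadjusted p under 0.05, the count of members for GEM against control was 1, not 0, with 75th-percentile scaling, the mean of all probe sets, the replicate block or the 3 tumors left out, and 0 to 3 leaving out each array. For the GEM main effect it was 1, not 3, with dim probe sets left out or scaling, and 0 to 4 leaving out each array. For GEM/anti-CD40 Ab against anti-CD40 Ab it was 1, not 2, with all arrays in one fit, dim probe sets left out, the other prior or scaling, 5 without the 3 tumors, and 1 to 3 leaving out each array. For anti-CD40 Ab against control it was 11, not 6, without the 3 tumors. For the interaction it was 2 (Adamts12 and Adamts4), not 0, without the 3 tumors, and 0 to 1 leaving out each array. Leaving out each array gave 5 to 10 for GEM/anti-CD40 Ab against control (10 in all) and 6 to 10 for GEM/anti-CD40 Ab against GEM (10 in all). The share of all genes at an unadjusted p was not counted under these alternatives. The causes were not tested. Of the other values, 139 counts of called members and 118 counts at an unadjusted p kept within 1.5 times.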
